A study of Mus musculus with 6 samples.

Results

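The cell division genes described here were 41 genes that act in DNA replication or in mitosis. They were found on the array by their gene names, and made up 41 of the 34797 gene names and 59 of the 55681 probes. Of the 41, 14 act around the S phase, when DNA is copied, and 27 act in mitosis, when the copies are parted. C57BL/6J dams ate an amino acid-based diet with folic acid (FA) at 2 mg/kg, the basal level, or at 20 mg/kg, from shortly before mating until birth. RNA was taken from the cerebellum of pups at postnatal day 1, pooled from 3 pups of the same sex with a different dam for each pup, and every pool was labelled with 1 dye and put on 1 array. There was 1 female and 1 male pool at 2 mg and there were 2 female and 2 male pools at 20 mg, from extractions done in 2 batches, 6 arrays in all. The question was whether a higher maternal FA intake altered the pups' transcripts, and with 1 pool per sex at 2 mg the spread between pools could be seen only at 20 mg.

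Cells that divide pass from G1 through the S phase to mitosis. Entry into the S phase depends on E2F factors, cyclin E and the loading of the MCM helicase onto origins, and mitosis depends on Cdk1 with cyclins A and B, on the kinetochore and on the spindle. In the mouse cerebellum around birth most dividing cells are granule cell progenitors of the external germinal layer, with glial progenitors beside them, so these transcripts mark the dividing part of the tissue. Folate carries the carbon units used to make thymidylate and purines, the building blocks of new DNA. In pooled tissue, fewer dividing cells and less transcript per dividing cell cannot be told apart.

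The promoters of the S-phase and mitotic members held different sequence motifs. The sets below show the 200 bases before the annotated start of 5 members, 5′ to 3′ on the gene's strand, from RefSeq on build GRCm38.p6, with motif matches in capitals. Cdk1, Mcm2 and Mcm5 are shown because the fold rule described further on called them, and Mki67 and Mcm6 because they hold the motifs of their class. The motifs were TTTGAA, the core of the cell cycle genes homology region (CHR) found in genes of late cell cycle, CCAAT, the box bound by NF-Y, and 4 forms of the E2F site, TTTCCCGC, TTTGGCGC, TTTCGCGC and TTTGCCGC, each searched on both strands. In Mcm5 and Mcm6 neighbouring E2F matches overlap on opposite strands and read as 1 run of capitals.
Cdk1, chr10:69352913-69353112, minus strand: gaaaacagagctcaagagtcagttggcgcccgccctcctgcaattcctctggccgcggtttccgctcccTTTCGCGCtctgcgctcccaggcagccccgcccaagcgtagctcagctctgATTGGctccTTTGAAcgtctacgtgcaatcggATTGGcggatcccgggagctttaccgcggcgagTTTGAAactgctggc
Mki67, chr7:135716380-135716579, minus strand: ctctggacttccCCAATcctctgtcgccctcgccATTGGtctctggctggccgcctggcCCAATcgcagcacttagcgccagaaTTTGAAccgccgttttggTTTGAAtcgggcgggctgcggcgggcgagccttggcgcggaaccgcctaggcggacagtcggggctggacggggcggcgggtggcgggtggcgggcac
Mcm2, chr6:88898781-88898980, minus strand: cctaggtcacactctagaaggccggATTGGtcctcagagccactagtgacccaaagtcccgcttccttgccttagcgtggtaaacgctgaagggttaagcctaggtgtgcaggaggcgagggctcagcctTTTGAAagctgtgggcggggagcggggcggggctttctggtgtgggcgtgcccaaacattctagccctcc
Mcm5, chr8:75109309-75109508, plus strand: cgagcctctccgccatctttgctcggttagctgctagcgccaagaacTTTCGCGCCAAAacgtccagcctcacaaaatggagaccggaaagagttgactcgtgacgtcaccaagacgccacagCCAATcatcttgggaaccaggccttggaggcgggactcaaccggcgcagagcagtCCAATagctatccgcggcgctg
Mcm6, chr1:128359706-128359905, minus strand: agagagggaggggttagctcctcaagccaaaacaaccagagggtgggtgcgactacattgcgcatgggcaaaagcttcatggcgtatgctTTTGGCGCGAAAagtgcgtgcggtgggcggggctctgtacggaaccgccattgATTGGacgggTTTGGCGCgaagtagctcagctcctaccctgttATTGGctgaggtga

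The table of promoters held 34 of the 41 members, and Aurkb, Ccna2, Ccne2, Foxm1, Kif20a, Mcm4 and Tpx2 were not among them. Of the 22 mitotic members with a window of 250 bases before to 50 after the start, 15 (68.2%) held a CHR match, against 1 of 12 S-phase members (8.33%) and 20.2% of all 27025 genes in the table. A CCAAT match stood in 17 mitotic members (77.3%) and 8 S-phase members (66.7%), against 41.1% of all genes. An E2F match stood in 6 of the 12 S-phase members (50%), 1 of the 22 mitotic members (4.55%) and 2.60% of all genes. The mitotic member with an E2F match was Cdk1, and the S-phase member with a CHR match was Mcm2. Of the 40 CCAAT matches in mitotic members, 40 lay before the start, and of the 19 CHR matches 10 did. These are matches of letters, with no test and no measure of binding.

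**Figure D1:**
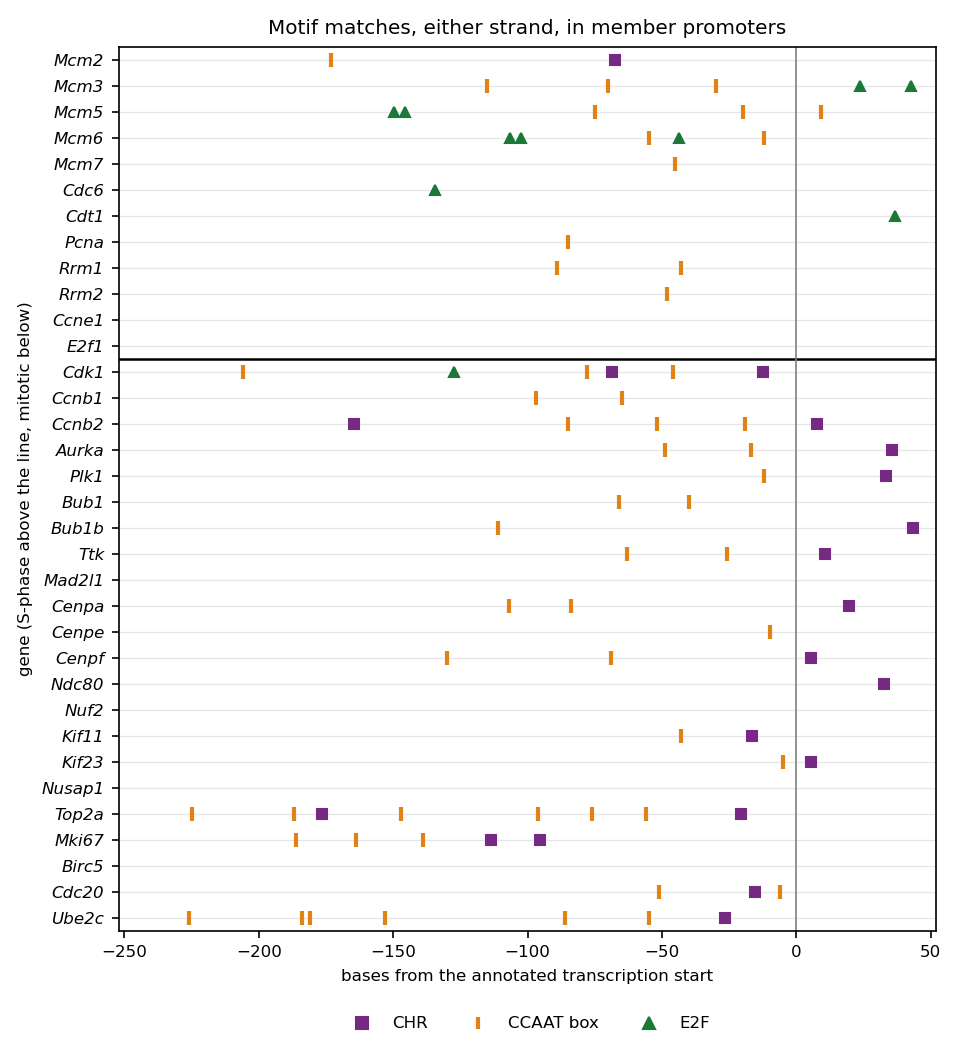
Motif matches in the promoters of the 34 members with a window (x axis: bases from the annotated transcription start, a single window for Mcm7, which has 2; y axis: genes, S-phase above the line). Squares (CHR) lie almost wholly among the mitotic members, triangles (E2F) almost wholly among the S-phase members, and bars (CCAAT) in both.

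The arrays differed in quality, and this bears on every value below. The scanner software flagged 51.1% to 71.9% of probes as well above background on 5 arrays and 23.3% on the second female 20 mg array, where the median processed signal was 5.14 against 39.0 to 162 on the others. On that array 21 of the 41 members were not well above background, 17 of them mitotic. Slide 1 carried both 2 mg arrays and the first female 20 mg array, slide 2 the second female and the first male 20 mg array, and slide 3 the second male 20 mg array, so dose and slide cannot be told apart in males. Slide 2 was scanned on 1 day and slides 1 and 3 on another. The 2 male pools at 20 mg thus differed in slide and scan day as well. The tissue field of the labels says whole brain while the titles say cerebellum. Of 7 cerebellar marker genes (such as En1, En2 and Zic1) each array measured 5 to 7 well above background. Of 5 forebrain markers (Emx1, Emx2, Tbr1, Neurod6 and Dlx2) all were on 4 arrays, 3 on the second male 20 mg array and 0 on the second female 20 mg array, and their summed signal ranged from 9.77 to 12.6 (log2), so genes of both regions were measured.

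All 41 members were first compared by the rule of the study's methods, a difference of at least 2.5-fold between the mean at 20 mg and the 2 mg array of the same sex after a filter on variation. In males 1 member, Cdk1, was called lower and 0 were called higher, against a background of 2.17% of all probes lower and 1.42% higher. In females 10 members were called lower and 0 higher, against 10.3% of all probes lower and 8.65% higher, and 15.3% and 5.43% of the probes above background. The 10 were the helicase subunits Mcm2 and Mcm5, Cdk1, cyclin A2 (Ccna2), the centromeric histone Cenpa, the kinetochore proteins Ndc80 and Nuf2, the kinesins Kif11 and Kif23, and the spindle protein Nusap1. The rule has no error term. In the limma fit, which held 39 members among 37252 probes and used the spread between the 20 mg pools, 0 members and 0 probes passed an adjusted p of 0.05 in males, in females, over both sexes or for the difference between the sexes. At an unadjusted p under 0.05 there were 74 probes (0.199%) in males, 161 (0.432%) in females, 145 (0.389%) over both sexes and 51 (0.137%) for the difference between them, and 0 members in any of these. The median standard error of a member's difference was 1.44 on the log2 scale, larger than the 1.32 that equals 2.5-fold.

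All 10 female calls rested on the dim array. Each of the 10 was well above background on the first female 20 mg array and not on the second, and without the second array 0 members were called lower and 1 higher. Of the 16 members well above background on the other 5 arrays but not on this one, 10 (62.5%) were called lower in females, against 33.0% of the 13338 probes with the same flags. These flags use the signal on that array, so the shares describe the calls and are no separate support for them. Of the 20 members well above background on all 6 arrays, 0 were called in either sex, and among the 12408 such probes 1.86% were called lower and 1.94% higher in males and 2.22% lower and 5.12% higher in females. This set too is chosen by the signal on the dim array, so a member that fell there could not be in it. The differences of these 20 members in females lay between -0.77 for Pcna and 1.16 for Foxm1, with a median of 0.28. Without this array the female differences of the 10 lay between -0.95 for Mcm2 and 1.16 for Cenpa.

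**Figure D2:**
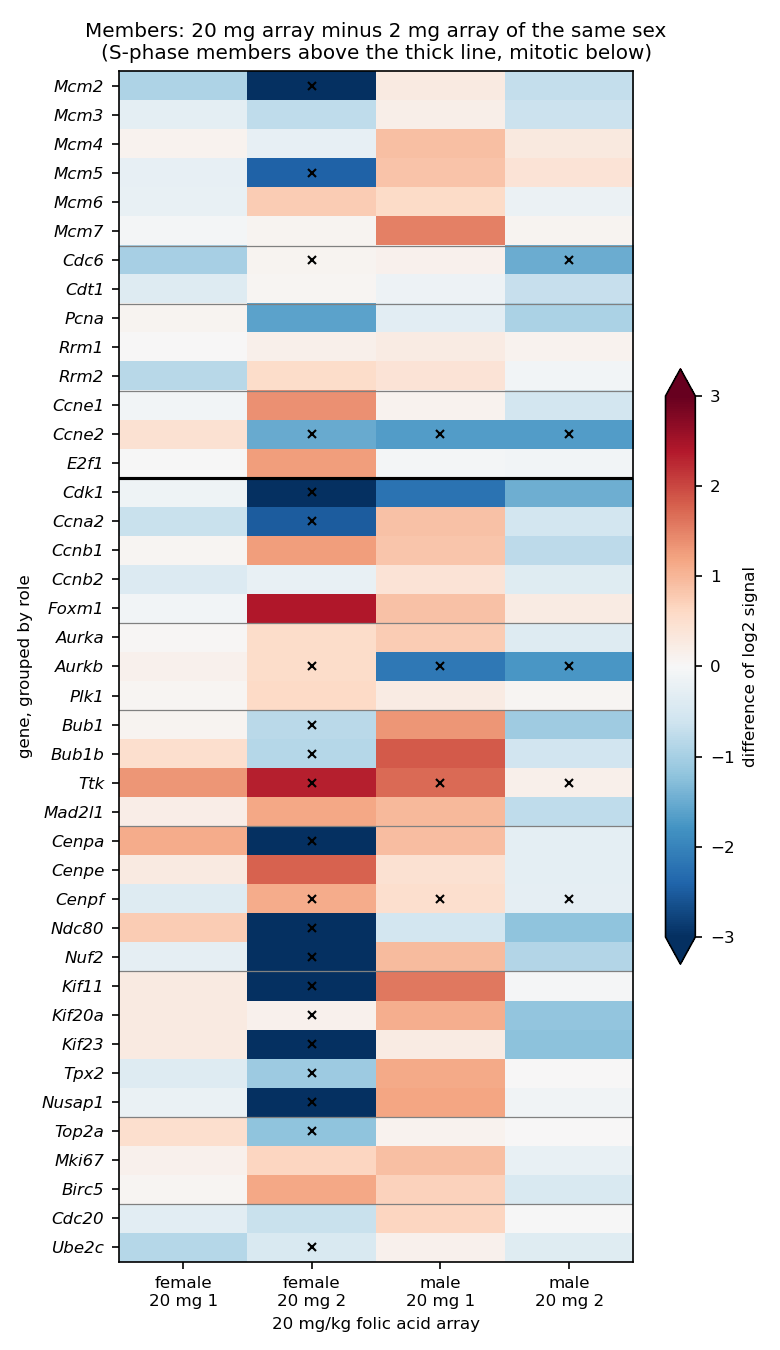
Difference of log2 signal between each 20 mg array and the 2 mg array of the same sex (columns) for the 41 members (rows, S-phase above the thick line, grouped by role), with crosses where the 20 mg value was not well above background. Colour runs from -3 (blue) to 3 (red), and values beyond are drawn at the end colours. The strong blue fields of the second female array all carry crosses, and the first male array is mostly red where the second is pale or blue.

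The MCM helicase unwinds DNA at the replication fork. Signals below are log2 of the quantile-normalized processed signal, with a floor at 10 (log2 3.32), in the order female 2 mg, female 20 mg first and second, male 2 mg, male 20 mg first and second. Mcm2 read 8.92, 8.00 and 3.74 in females and 9.07, 9.35 and 8.35 in males. It was lower on both female 20 mg arrays, and in males the 2 mg value lay between those at 20 mg. The female mean at 20 mg was 5.87 ± 3.02 (SD, n = 2), a difference of -3.05 with a standard error of 2.05, and without the dim array the difference was -0.95. Mcm5 read 9.31, 9.07 and 6.88 in females, where both 20 mg values were lower, and 9.38, 10.25 and 9.79 in males, where both were higher. The other 4 subunits were well above background on all 6 arrays. Mcm7 read 11.58 in the male 2 mg pool and 13.08 and 11.66 in the male 20 mg pools, and Mcm4 read 11.31, 12.21 and 11.60, so both 20 mg values of each were higher. In females Mcm7 stayed between 11.26 and 11.39. Mcm6 read 12.21, 11.99 and 12.96 in females and 12.45, 13.04 and 12.27 in males, with the 2 mg value between those at 20 mg in both sexes. Mcm3 was lower on 3 of the 4 20 mg arrays, between -0.77 and -0.30, and 0.16 higher on the first male array.

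Cdc6 and Cdt1 load the helicase onto origins. Cdc6 read 6.43, 5.45 and 6.52 in females and 5.86, 5.98 and 4.37 in males, the 2 readings at 6.52 and 4.37 not being well above background. A further Cdc6 probe, well above background on 4 arrays, gave 1.22 in females where the brightest gave -0.45. Cdt1 read 10.47, 10.08 and 10.52 in females and 10.72, 10.57 and 10.02 in males. Both male 20 mg values of Cdt1 were lower, by less than 2.5-fold.

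Pcna, the sliding clamp of the DNA polymerases, read 12.87, 12.95 and 11.26 in females and 13.16, 12.84 and 12.21 in males. Both male values at 20 mg were lower than at 2 mg, with a mean of 12.52 ± 0.45 (SD, n = 2) and a difference of -0.64 (standard error 1.02). Of the ribonucleotide reductase subunits, which make deoxyribonucleotides, Rrm1 read 0.00 to 0.25 above the 2 mg array of its sex on the 4 arrays at 20 mg. Rrm2 read 11.34, 10.50 and 11.89 in females and 11.56, 11.96 and 11.47 in males, so that the 20 mg pools of each sex lay on both sides of the 2 mg pool. E2f1, a transcription factor of S-phase entry, and Ccne1, a cyclin E, differed from 2 mg by -0.54 to 0.11 except on the dim array, where they were 1.25 and 1.38 higher.

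The probe of Ccne2, the other cyclin E gene, read 4.83, 5.29 and 3.32 in females and 5.0, 3.32 and 3.32 in males. The floor values were not well above background, and both male 20 mg readings were among them. With its male 20 mg readings raised to the dimmest signal well above background on those arrays, Ccne2 was 1.07-fold lower at 20 mg. This is no lower limit, since brighter probes there were also not flagged, such as a further Tpx2 probe at 5.41 and 4.97. Ccne2 was not called, because it did not pass the filter on variation.

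Cdk1, the kinase that drives entry into mitosis, was the only member called in both sexes. Its brightest probe, on chromosome 10 at 68801072 to 68801131 (build mm9), read 8.84, 8.72 and 3.32 in females and 9.21, 6.99 and 7.74 in males. Both male 20 mg values were lower and were well above background, with a mean of 7.36 ± 0.53 (SD, n = 2), a difference of -1.84 (standard error 2.26 in the limma fit) and a fold of 3.59. In females the first 20 mg value was 0.12 below that at 2 mg and the second was at the floor. This was also the only member lower on all 4 arrays at 20 mg, against 4.86% of all probes and 6.68% of those in the fit. Cdk1 has 2 more probes. The first overlaps the brightest for most of its length and gave -2.37 in males and -0.99 in females. The second lies apart from both, was well above background on 2 arrays and gave -1.19 in males and 0.95 in females.

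The other mitotic cyclins gave no common direction. Ccna2 read 10.26, 9.60 and 7.76 in females and 10.31, 11.19 and 9.76 in males, the 7.76 not being well above background. Cyclin B1 (Ccnb1) read 9.72, 9.77 and 10.97 in females and 9.84, 10.67 and 9.05 in males, with the male 20 mg pools 1.62 apart on either side of the 2 mg pool. Further, dimmer Ccnb1 probes gave 2.48 and 0.86 in females and 1.24 and 0.61 in males. The 2.48 was called higher, and neither probe was well above background on the dim array. Cyclin B2 (Ccnb2) differed from 2 mg by -0.40 to 0.42 over the 4 arrays at 20 mg. Foxm1, a transcription factor of mitotic genes, read 6.95, 6.87 and 9.36 in females and 7.20, 8.07 and 7.44 in males.

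Among the mitotic kinases, Aurka differed from the 2 mg array of its sex by -0.38 to 0.75 over the 4 arrays at 20 mg, and Plk1 by 0.06 to 0.60. Aurkb, the kinase of the chromosomal passenger complex, read 5.60, 5.74 and 6.16 in females and 5.75, 3.60 and 4.02 in males. The male 20 mg readings and the second female 20 mg reading were not well above background. The difference of Aurkb in males was -1.94 (standard error 1.68). With the male 20 mg readings raised to the dimmest signal well above background there, Aurkb was 1.81-fold lower, which again is no lower limit. Cdk1 was the sole member measured past 2.5-fold lower on both male 20 mg arrays. Aurkb and Ccne2 also read past it there, but on signals not well above background. This made 3 members, against 1.29% of all probes and 1.36% of those in the fit. Past it higher on both were 0 members, against 0.329% of all probes.

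These 3 members had the probes of lowest G and C content. Their brightest probes held 15% (Ccne2), 18.3% (Cdk1) and 20% (Aurkb) G and C, while the brightest probes of the other 38 members held 35% or more. Over all 269 probes in the fit with at most 25% G and C, the median difference was -1.48 on the first male 20 mg array, -1.17 on the second, 0.16 on the first female and -2.20 on the second female array, and 40.9% were called lower in males. When each class of G and C content was brought to a common median on every array, a step added after these values were seen, the male difference became -0.37 for Cdk1, -0.47 for Aurkb and -0.20 for Ccne2, and 0 members were called lower in males. The Cdk1 probe that overlaps the brightest, also with 18.3% G and C, gave -0.89 in males after the same step. It gave -1.88 on the first male array, where it was not well above background, and 0.10 on the second. The third Cdk1 probe, with 45% G and C, stayed at -1.33 in males after the same step, on signals near background. In females Cdk1 was called lower with and without the step.

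**Figure D3:**
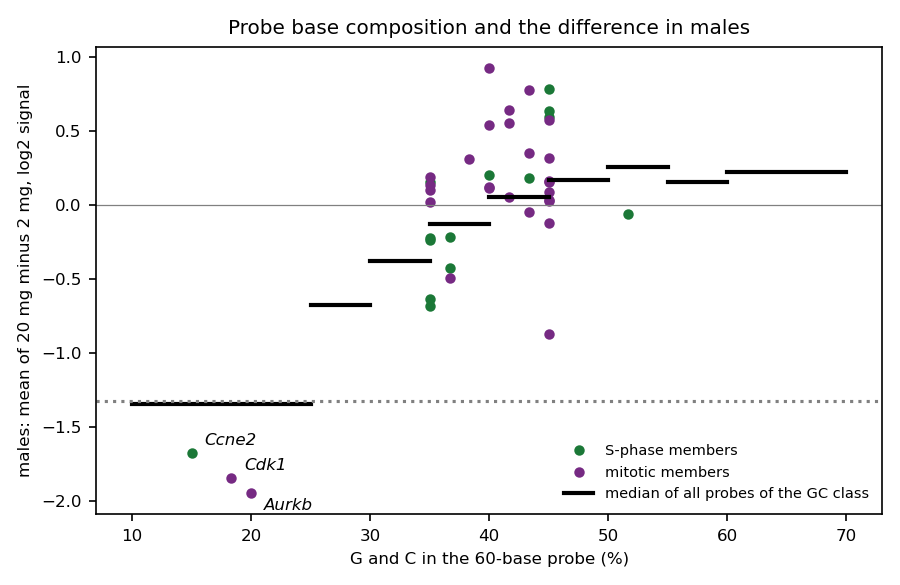
Difference in males (y axis, mean of the 20 mg arrays minus the 2 mg array, log2) against the G and C content of the brightest probe of each member (x axis, percent), with the median of all probes in the fit per class of G and C content as black bars, the outermost classes being open-ended. The dotted line marks 2.5-fold lower. Ccne2, Cdk1 and Aurkb lie at the far left, beside a class median of -1.34.

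The spindle checkpoint genes hold back anaphase until every chromosome is attached. In males all 4 were higher on the first 20 mg array and 3 of 4 were lower on the second. Bub1 read 7.41 at 2 mg and 8.74 and 6.34 at 20 mg, Bub1b read 7.08, 8.93 and 6.51, and Mad2l1 read 9.54, 10.50 and 8.79. In females the brightest Mad2l1 probe gave 0.68 and further, dimmer probes -0.77 and 0.34. The 2 male 20 mg pools differed by more than 2.5-fold in all 4 genes, for Ttk on signals not well above background, and the 2 mg pool lay between them in the other 3. Ttk, a checkpoint kinase, read 3.55, 4.89 and 5.87 in females and 3.85, 5.55 and 4.0 in males. It was well above background on the first female 20 mg array only. It was the sole member past 2.5-fold higher on both female 20 mg arrays, against 0.476% of all probes, and 1 of 3 members higher on all 4 arrays, with Rrm1 and Plk1, against 4.37%.

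Of the kinetochore and centromere genes, Cenpa read 7.73, 8.85 and 3.32 in females and 8.44, 9.37 and 8.15 in males. The 2 female 20 mg pools thus lay on either side of 2 mg, with differences of 1.12 and -4.41. Ndc80 read 7.55, 8.31 and 3.5 in females and 8.17, 7.63 and 6.97 in males, and Nuf2, its partner, read 6.71, 6.43 and 3.47 and then 6.95, 7.89 and 6.08. A further Nuf2 probe, not well above background on any array, gave 1.14 in females where the brightest gave -1.76. Cenpe, a kinesin of the kinetochore, was well above background on all arrays and read 9.85, 10.12 and 11.62 in females and 10.30, 10.76 and 10.01 in males. Cenpf was well above background on 1 array only.

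The spindle motors and microtubule proteins had 0 of 5 members well above background on the dim array. Kif11, the kinesin that pushes spindle poles apart, read 6.37, 6.63 and 3.37 in females and 6.42, 7.99 and 6.39 in males. Kif23, a kinesin of the cleavage furrow, read 7.18, 7.44 and 3.32 in females and 7.51, 7.76 and 6.29 in males. A further Kif23 probe, not well above background on any array, gave 1.01 in females where the brightest gave -1.80. Nusap1 read 8.11, 7.91 and 3.32 in females and 8.08, 9.26 and 7.97 in males. Without the dim array the female differences of Kif11, Kif23, Cenpa and Ndc80 were positive, at 0.29, 0.28, 1.16 and 0.80. Tpx2, which activates Aurora A on the spindle, read 8.34, 7.95 and 7.24 in females and 8.29, 9.42 and 8.30 in males. Kif20a was 1.08 higher on the first male 20 mg array and 1.18 lower on the second.

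Mki67, the proliferation marker Ki-67, was measured on all 6 arrays and read 10.85, 10.97 and 11.51 in females and 11.25, 12.16 and 11.04 in males. The difference was 0.39 in females and 0.35 in males (standard error 1.09 for each), with the male 2 mg pool between the 20 mg pools, and a further Mki67 probe gave 0.07 and 0.89. Top2a, the topoisomerase that untangles sister chromatids, read 7.56, 8.07 and 6.36 in females and 8.11, 8.22 and 8.11 in males, the 6.36 not being well above background. Birc5 (survivin) read 10.88, 10.94 and 12.05 in females and 11.35, 12.04 and 10.90 in males. Its brightest probe thus gave 0.61 in females, while further Birc5 probes gave -0.88 and 0.84 there and 0.45 and 0.84 in males. Cdc20, an activator of the anaphase-promoting complex, and Ube2c, its ubiquitin-conjugating enzyme, were lower on both female 20 mg arrays, Cdc20 by -0.31 and -0.68 and Ube2c by -0.85 and -0.46, the last on a signal not well above background. A further Ube2c probe, brighter on every array but the dim one, read 9.50, 8.46 and 4.66 in females and 9.58, 10.26 and 9.67 in males. It was called lower in females (-2.94), with the 4.66 not well above background.

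**Figure D4:**
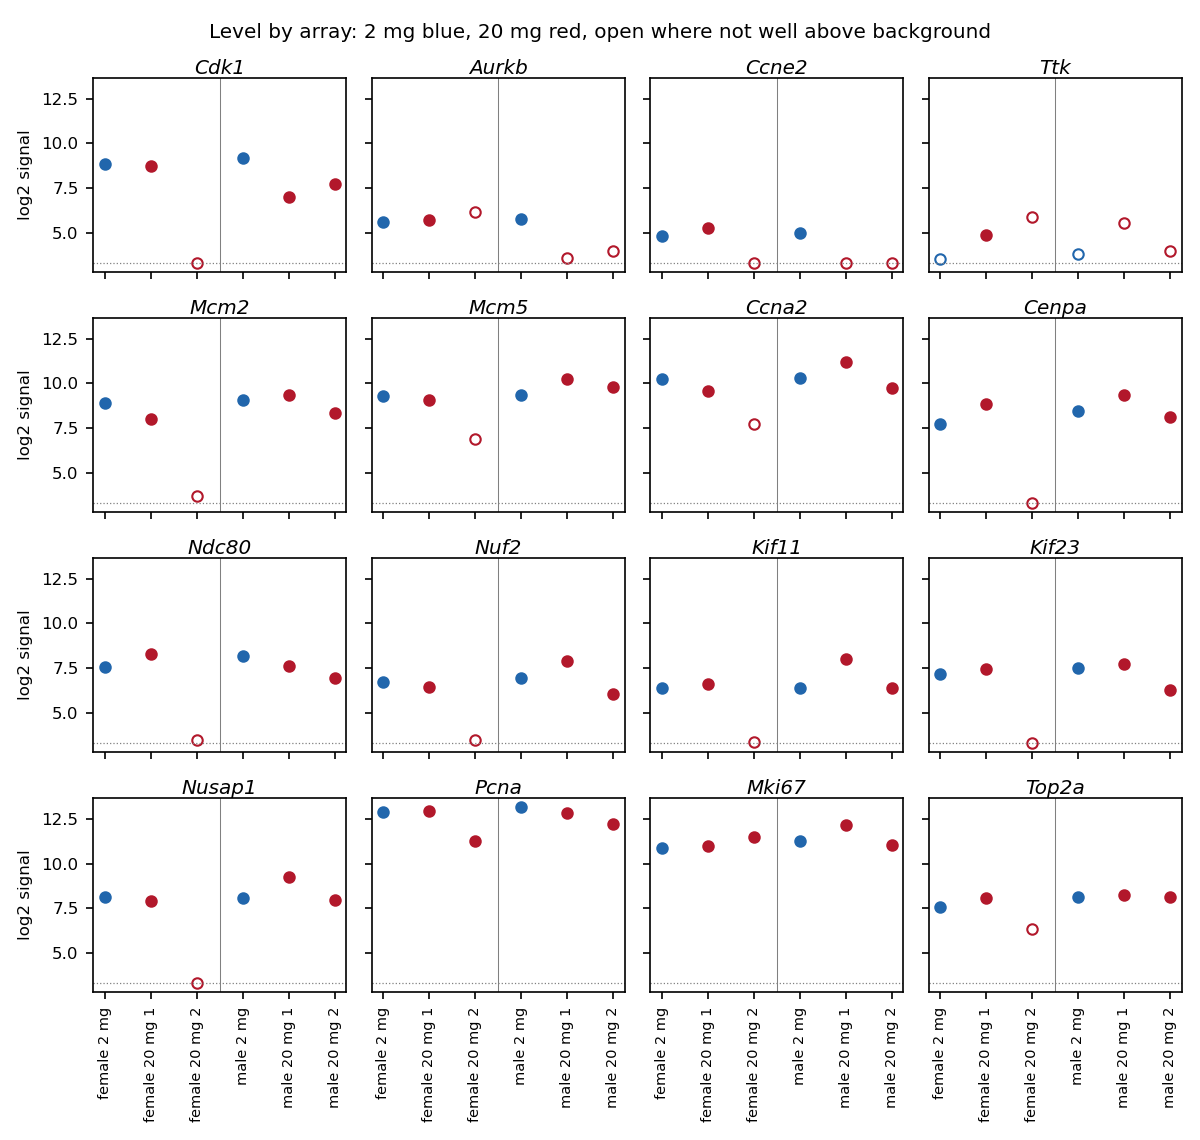
Log2 signal of 16 members on each of the 6 arrays (x axis, females left of the line, males right; 2 mg blue, 20 mg red), filled where well above background and open where not, with the floor as a dotted line. Cdk1 is lower on both male 20 mg arrays, and the lowest female readings of Mcm2, Mcm5, Ccna2, Cenpa, Ndc80, Nuf2, Kif11, Kif23 and Nusap1 are open circles of the second female 20 mg array.

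Over the 41 members, the 2 male pools at 20 mg stood further apart (median 0.79, first minus second) than the doses did. On the first male 20 mg array 34 of 41 members were above the male 2 mg array, with a median of 0.59, against 53.6% of all probes in the fit and a median of 0.09. On the second 9 of 41 were, with a median of -0.37, against 43.2% and -0.16. In 25 members the 2 arrays gave opposite signs, for which the share of all probes was not counted. On the first array 38 of 41 members read higher than on the second, against 57.6% of all probes in the fit. The mean of both pools gave a median of 0.11 for the members and -0.04 for all probes in the fit. Of the members, 12 differed by more than 2.5-fold between the male 20 mg pools, and so did 38.2% of the probes in the fit.

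The median difference between the male 20 mg pools was 1.13 in the mitotic members, 0.62 in the S-phase members and 0.29 over all probes in the fit, given as a description with no test. On the first male 20 mg array the mitotic median was 0.83 (24 of 27 higher) and the S-phase median 0.21 (10 of 14 higher), while on the second the medians were -0.37 and -0.36. On the first the gap of -0.62 between S-phase and mitotic medians became -0.54 with the classes of G and C content levelled, and on the second it was 0.01. Over both pools S-phase minus mitotic was -0.26, with an SD of 0.45 between the pools (n = 2), so the gap was within the spread. In females it was 0.15 with an SD of 0.52, from -0.21 on the first array and 0.52 on the second. A longer list of 48 further mitotic genes had 38 above 2 mg on the first male 20 mg array and 9 on the second, and 42 further S-phase genes had 27 and 9.

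Marker lists of cell types were read on the same male arrays, first and second 20 mg array against 2 mg. Of lists that hold dividing cells, the 6 granule cell progenitor markers (Atoh1, Barhl1, Mycn, Gli1, Ptch1 and Ccnd2) had medians of 0.47 and -0.79, and the 6 radial glia markers 0.23 and -0.62. Of the granule cell progenitor markers 5 read higher than 2 mg on the first array and 1 on the second. Among them Ptch1 was called lower in males (-2.56). It was also called lower in females (-2.33), where it was not well above background on the dim array. The 7 cerebellar markers had medians of 0.26 and -0.74 and the 5 forebrain markers 0.92 and -0.40. Lists without dividing cells also differed between the 2 arrays, with 0.15 and -0.74 for 5 choroid plexus markers, 0.32 and -0.31 for 5 red blood cell markers, -0.21 and -0.84 for 5 Purkinje cell markers, -0.25 and -0.67 for 5 markers of meninges and 0.04 and -0.25 for 4 of microglia. The 6 postmitotic neuron markers (-0.15 and -0.03) and the 4 endothelial markers (-0.43 and 0.40) did not read higher on the first. The summed signal of the granule cell progenitor markers ranged from 12.7 to 14.0 (log2) on the male 20 mg arrays and was 13.5 on the male 2 mg array, with all 6 well above background on the 3 male arrays. The part of cell composition in the difference between the male pools was not tested, and slide and scan day cannot be told apart from pool there.

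**Figure D5:**
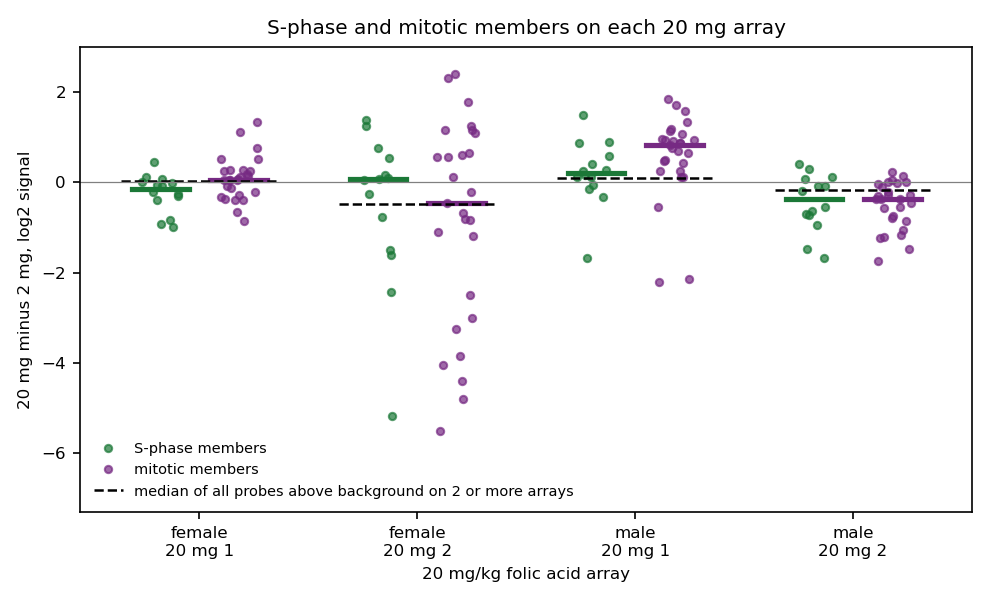
Difference of log2 signal from the 2 mg array of the same sex (y axis) on each 20 mg array (x axis) for S-phase members (green) and mitotic members (purple), a point per gene, with group medians as solid bars and the median of all probes in the fit dashed. The mitotic median is 0.83 on the first and -0.37 on the second male array, and the points of the second female array reach below -5.

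On slide 1 the first female 20 mg pool could be set against both 2 mg pools without a change of slide. Against the female 2 mg pool, 10 of 14 S-phase members were lower, with a median of -0.15, and 10 of 27 mitotic members were, with a median of 0.06. Against the mean of both 2 mg pools, which holds the higher male readings described next, 13 of 14 S-phase members were lower, with a median of -0.24, and 14 of 27 mitotic members, with a median of -0.01, while 47.9% of all probes in the fit were lower. The lowest against this mean were Mcm2 and Ube2c at -0.99, Rrm2 at -0.95, Cdc6 at -0.70 and Ccna2 at -0.69, and 4.17% of the probes in the fit were as low as Mcm2. The highest were Ttk at 1.18 and Cenpa at 0.76. All 6 MCM genes were lower than this mean, between -0.99 and -0.07, and 5 of 6 were lower than the female 2 mg pool, Mcm4 being 0.11 higher. The 42 further S-phase genes had 18 lower than the mean, with a median of 0.04. The 5 forebrain markers were all higher than the mean, with a median of 1.54, and their part in these values was not tested. These values rest on 1 pool at 20 mg and have no replicate check.

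The 2 mg pools, which shared the slide, differed from each other in the same genes. With 1 pool per sex, a difference by sex cannot be told apart from a difference between pools. Between the male 20 mg pools, which lay on different slides, the median difference of the members was 0.79. In 37 of 41 members the male 2 mg pool read higher than the female, with a median of 0.23, against 50.1% of all probes in the fit and a median of 0.00. So did 36 of the 42 further S-phase genes (median 0.24) and 44 of the 48 further mitotic genes (median 0.30), while 5 of 17 genes of G1 and cell cycle exit did. Cenpa (0.71), Ndc80 (0.62) and Top2a (0.56) were the highest among the members, and Cenpf (-0.65, not well above background in either pool) and Cdc6 (-0.58) the lowest. In limma, with the spread of the 20 mg pools standing in for that of the single pools at 2 mg, 0 members and 0 probes passed an adjusted p of 0.05, and 44 probes (0.118%) and 0 members had an unadjusted p under 0.05. The 6 granule cell progenitor markers had a median of 0.41 in the same comparison, the 6 radial glia markers 0.17, the 5 choroid plexus markers 1.06 and the 5 forebrain markers -1.75, the last higher in the female pool in 4 of 5.

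Further genes of the pathway were counted by the same fold rule. Among 42 further S-phase genes 1 was called lower in males and 6 in females, among 48 further mitotic genes 1 and 10, and among 17 genes of G1 and cell cycle exit 0 and 4, with 0 called higher in either sex and 0 called by limma. Over all probes 2.17% were called lower in males and 10.3% in females, and over the probes in the fit 2.97% and 15.3%. Of the 20 female calls, 19 were not well above background on the dim array, the exception being Hmgb2. The calls in males were Gmnn (geminin, the inhibitor of Cdt1) at -1.75 and the kinesin Kif14 at -1.57. Dtl, part of the ubiquitin ligase that degrades Cdt1, read 8.05, 7.43 and 6.69 in females and 8.71, 7.28 and 6.73 in males. It was lower on all 4 arrays at 20 mg, by -1.70 in males and -0.98 in females, without passing the filter on variation, and its adjusted p in limma over both sexes was 1.00.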

How the data were processed

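RNA of 6 pools of P1 mouse cerebellum (3 pups each) was measured on single-colour Agilent arrays. The authors scanned them with Feature Extraction 10.7.3.1 and deposited, per the file headers, spot intensities with flags, and a log2 value table whose columns had medians of 6.49, except 5.23 for the second female 20 mg array, that ran in the same direction as the scanner values, centring unstated. Processed signals without outlier spots were averaged per probe, log2-transformed, brought to common quantiles across arrays and floored at 10. A gene was read from its brightest probe. The fold rule required a chi-square p of at most 0.05 for variation against the median variance, at most 50% missing values and a 2.5-fold difference. limma 3.58.1 in R 4.3.3 (4 groups, trended eBayes, Benjamini-Hochberg) was fitted to 37252 probes well above background on at least 2 arrays. The script was tested on simulated data with less noise than these arrays, so that test does not show the power here. Analyses ran in Python 3.11.15 with pandas 2.3.3 and scipy 1.17.1. The number of arrays limits the precision. Named genes were all 41 members, with values by array for those called, those past 2.5-fold on both 20 mg arrays of a sex and a few fixed proliferation genes, and up to 3 genes per further list by a rule of size. Members, lists and tests were chosen with earlier results of these data known. Replicate numbers exist only at 20 mg. Alternatives were other background corrections, scalings, filters, thresholds, blocks, and leaving out each 20 mg array. Probe positions are on mm9, as deposited, and promoters on GRCm38.p6 were used for sequences alone. Columns from outside the study numbered 0. A marker gene is not reported here and was left out of its list after values were seen.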

Additional observations from a re-analysis of the deposited data

Results flagged for a closer look

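In 3 members both 20 mg arrays of a sex lay on one side of 2 mg and both of the other sex on the opposite side. The share of all probes with this pattern was not counted, so the 3 are not set against a background. The female minus male difference was -1.98 for Mcm5, which was lower on both female and higher on both male 20 mg arrays, and -1.32 for Tpx2, with the same directions and a male difference of 0.01 on the second array. On the second female 20 mg array Mcm5 (-2.43 from 2 mg) and Tpx2 (-1.10) were not well above background, and on the first they differed by -0.25 and -0.39. The female minus male difference was 2.29 for Aurkb, which was lower on both male arrays. Its signals there and on the second female array were not well above background. These differences between the sexes were picked by direction alone. In the limma fit 0 members and 0 probes passed for the difference between the sexes at an adjusted p of 0.05, and 51 probes, 0 of them members, had an unadjusted p under 0.05.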

How the results depend on the processing

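The count of members called lower in males, 1 in the values above, was 0 with a shift to the 75th percentile in place of quantile normalization and 0 with the classes of probe G and C content levelled (added after seeing the data), 2 with the floor set before normalization, in the deposited table and at 1.5-fold, and 3 without the filter on variation. Leaving out each 20 mg array in turn gave 1 to 3, the 3 without the second female array. The count called higher in males, 0 above, was 2 at 1.5-fold and 0 to 1 with each array left out, the 1 without the second male array. The 10 members called lower in females became 0 with the 75th percentile shift, 4 with normexp background correction, 3 with mean signals without background correction, 6 in the deposited table and 0 to 10 with each array left out, the 0 without the second female array. The count called higher in females was 1 with the classes levelled, 1 without the filter on variation and 0 to 1 with each array left out, the 1 without the second female array. The median female difference of the members was 0.11 with the 75th percentile shift and ranged from -0.21 to 0.0023 with each array left out. That shift moved the median of all probes in the fit on the second female array from -0.48 to 1.00. Under it the female differences of Cenpa (0.034), Ndc80 (0.046) and Kif11 (0.35) turned positive, as did Kif11 with normexp (0.097). With each array left out in turn, the female differences ranged from -4.01 to 1.16 for Cenpa, -3.84 to 0.80 for Ndc80, -2.68 to 0.29 for Kif11 and -3.47 to 0.28 for Kif23, each positive without the second female array. The cause was not tested. The gap of S-phase minus mitotic members was -0.63 to 0.0023 in males and -0.21 to 0.52 in females with each array left out. On each male 20 mg array the sign of the mitotic median was the same under all 10 settings for which it was computed. limma called 0 members in every alternative run, with member adjusted p from 0.26 to 1.00 in females and 0.96 to 1.00 for the difference between the sexes. With the replicate number as a block 0 members were called, and 1, 10, 13 and 0 of all probes in males, females, both sexes and between the sexes. The numbers did not pair the samples, since first minus second array correlated at 0.087 between the sexes and the 2 mg arrays carry none. Of the results that answer a comparison, 135 values recomputed under alternatives kept their direction and their side of the threshold or stayed within the spread between pools, and 19 did not. The 135 include the counts of 0 members by limma, which has little power with 1 array per sex at 2 mg. They also include changes of sign within the spread, such as the S-phase minus mitotic gap in females, -0.16 with the 75th percentile shift. On the second female array 23.3% of probes were well above background, which limits the female values.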
